A study of Mus musculus with 20 samples.

Results

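The Hermansky-Pudlak and BLOC complex genes described here are Hps1, Hps3, Hps4, Hps5, Hps6, Ap3b1, Ap3d1, Dtnbp1, Bloc1s3 and Lyst, taken by symbol from the gene rows of the deposited count and TPM tables. They make up 10 of 29956 gene rows, and all 10 were among the 13541 genes that passed the filter on low counts. RNA was measured in melb-a cells, an immortal line of mouse melanoblasts (the precursors of pigment cells), by poly(A) RNA-seq in 5 groups of 4 libraries each. The parental group was not transduced. The other 4 groups received a lentiviral short hairpin RNA and puromycin selection: shLuciferase and shScramble are control hairpins, and shHIRA I and shHIRA II are hairpins against Hira, a histone chaperone that deposits the variant histone H3.3. Cells of every group were kept in stem cell factor and Fgf2, every group carries the genotype label wt, and a single cell line was used. The comparison asked whether the genes that sort proteins to the melanosome fall together with the melanosome proteins that they sort.

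The melanosome is a lysosome-related organelle, built from endosomes that receive pigment enzymes and transporters as cargo. The adaptor AP-3 and the BLOC complexes (biogenesis of lysosome-related organelles complexes) carry that cargo: BLOC-1 and BLOC-2 act on the tubules that leave the endosome, and BLOC-3 activates the small GTPases Rab32 and Rab38. Loss of subunits of these complexes causes Hermansky-Pudlak syndrome, with pale skin and hair and bleeding, and loss of Lyst, a large BEACH-domain protein, causes Chediak-Higashi syndrome, with giant lysosome-related organelles.

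The promoter sequences of Hps3, Ap3b1 and Hps1 are shown because Hps3 and Ap3b1 had the largest fold changes among the genes called over both Hira hairpins against both control hairpins, and Hps1 did not pass the test there. They are RefSeq sequences of GRCm38.p6, read 5′ to 3′ on the gene's strand. Capitals mark the E-box CACGTG and the M-box core CATGTG, which reads as CACATG on the other strand, letters that the melanocyte factor Mitf is known to bind; the motifs do not overlap here. The Hps3 sequence lies at chr3:20035311-20035560 on the minus strand, with the first base of its E-box 15 bases before the annotated start.
Hps3: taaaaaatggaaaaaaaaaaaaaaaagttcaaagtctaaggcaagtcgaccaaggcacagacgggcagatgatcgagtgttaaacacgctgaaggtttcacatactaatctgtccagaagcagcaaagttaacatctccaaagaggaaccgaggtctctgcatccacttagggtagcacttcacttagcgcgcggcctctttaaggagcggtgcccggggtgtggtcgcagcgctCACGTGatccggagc
The Ap3b1 sequence lies at chr13:94358710-94358959 on the plus strand and holds neither motif.
Ap3b1: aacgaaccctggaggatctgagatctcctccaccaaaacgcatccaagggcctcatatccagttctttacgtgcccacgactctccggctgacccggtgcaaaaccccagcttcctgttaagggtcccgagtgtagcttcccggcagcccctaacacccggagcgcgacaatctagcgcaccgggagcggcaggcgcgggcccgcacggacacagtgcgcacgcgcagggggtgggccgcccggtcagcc
The Hps1 sequence lies at chr19:42779974-42780228 on the minus strand and holds both motifs, with first bases 14 bases and 1 base before the start. It is printed to the end of the E-box, most of which lies past the start. Hps1 has another RefSeq window, chr19:42778597-42778896, that holds neither motif, and the window with the motifs was the one chosen to show.
Hps1: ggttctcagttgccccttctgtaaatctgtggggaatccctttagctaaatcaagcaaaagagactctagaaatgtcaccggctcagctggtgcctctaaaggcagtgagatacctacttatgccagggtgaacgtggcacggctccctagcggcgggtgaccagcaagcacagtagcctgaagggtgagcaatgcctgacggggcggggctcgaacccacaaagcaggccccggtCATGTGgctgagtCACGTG
RefSeq gave 11 windows for the 10 genes, each from 250 bases before to 50 bases after a start. The E-box, searched on both strands, was in the windows of 4 genes: Hps1, Hps3, Bloc1s3 (8 bases before the start) and Hps5 (227 and 192 bases before). Among all 32851 windows of the same length, 7.15% held it. The M-box core was only in the Hps1 window shown, and in 14.2% of all windows. A match describes letters and is not a measured binding site.

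The libraries held 14952948 to 20669874 estimated counts. Hira itself, given in CPM (read counts scaled to a common library total, with TMM factors), lay between 63.7 and 89.8 in the 8 control hairpin libraries, between 26.6 and 45.4 with shHIRA I, and between 63.2 and 70.9 with shHIRA II. It fell to 48.3% of the control level with shHIRA I (adjusted p = 5.15e-05). The shHIRA II libraries had it at 87.8% (adjusted p = 0.306), so the Hira level does not bear out that label, and what follows for shHIRA II describes the libraries labelled so. Mitochondrial genes took 1.23% of the counts in shHIRA I replicate 3 and 2.88% in shHIRA II replicate 2, against 4.45 to 9.96% in the other 18 libraries. Every shHIRA II library, at 2.88 to 4.71%, lay below every control hairpin library (6.43 to 9.96%). A covariate for this share therefore partly stands for the shHIRA II group, and in calls lost under it these cannot be told apart. Over the 10 genes shHIRA I replicate 3 also stood apart from its group, with a median absolute log2 difference of 0.62 from the other libraries of the group, against 0.075 to 0.35 for every other library. Melanoblast markers summed to between 774 and 1180 TPM in the control hairpin libraries, 225 to 511 with shHIRA I and 156 to 275 with shHIRA II. Of the 8 markers, Ednrb was under 0.5 TPM in every library, and Dct, Pmel and Tyr are also cargo genes read below. Over both hairpins Mitf (log2 -1.21) and Kit (-1.73) were called lower by edgeR. Pax3 (-0.09, adjusted p = 0.598) and Sox10 (-0.84, adjusted p = 0.711) did not pass. Fibroblast markers summed to between 20.4 and 39.9 TPM in the controls, 50.3 to 110.5 with shHIRA I and 5.30 to 11.0 with shHIRA II, with 2 of 7 markers under 0.5 TPM in every library. Over both hairpins Col1a1 rose (log2 2.12) and Lum fell (-1.82), while Col1a2, Pdgfra and Dcn did not pass. The pooled values average unlike groups. By edgeR, shHIRA II was lower than shHIRA I for Dcn (log2 -3.8, adjusted p = 4.14e-06) and Col1a2 (-2.42, 6.68e-05). It was also lower for Col1a1 (-3.07, 0.00531) and Lum (-1.93, 0.0189), and Pdgfra did not pass (-1.47, 0.0638). Leukocyte markers summed to at most 18.3 TPM and keratinocyte markers to at most 9.75 TPM. The part of these shifts in the results was not tested, and in bulk RNA fewer cells of a type and less RNA per cell cannot be told apart.

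The 10 genes did not move as a block. Hps3 fell with each hairpin. Hps5, Ap3b1 and Ap3d1 fell when both hairpins were pooled, and Hps1, Hps4, Hps6, Dtnbp1, Bloc1s3 and Lyst did not pass the test in that comparison. With shHIRA I alone only Hps3 was called lower. With shHIRA II alone Hps5, Ap3b1, Ap3d1 and Lyst were called lower as well, in libraries where Hira was not measurably lower. With both Hira hairpins against both control hairpins, 4 of the 10 genes were called lower and 0 higher by edgeR at an adjusted p under 0.05, where 15.1% of all tested genes were called lower and 14.2% higher (10.1% and 19.2% with limma on TPM). The genes' median log2 fold change was -0.29, beside 0.03 over all tested genes. At an unadjusted p under 0.05, 5 were lower and 0 higher. DESeq2 called 5 lower and 0 higher, and limma on log2(TPM + 1) called 2 lower (Hps3 and Ap3b1) and 1 higher (Dtnbp1). With shHIRA I alone, 1 of the 10 was called lower and 0 higher, beside backgrounds of 8.87% and 10.9% (6.14% and 12.3% with limma on TPM), and the median was -0.19; 0 were higher at an unadjusted p under 0.05 or by DESeq2 or limma. With shHIRA II alone, 5 of the 10 were called lower and 0 higher, beside 16.7% and 15.7% (12.2% and 19.5% with limma on TPM), and the median was -0.38; 0 were higher at an unadjusted p under 0.05 or by DESeq2, and limma on TPM called Dtnbp1 higher. These comparisons share their control libraries. Between the 2 control hairpins edgeR called 0 of the 10 and 0 of the 13541 genes, with 0 of the 10 and 170 of all genes at an unadjusted p under 0.05, where DESeq2 called 5 genes and limma on TPM called 0.

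**Figure D1:**
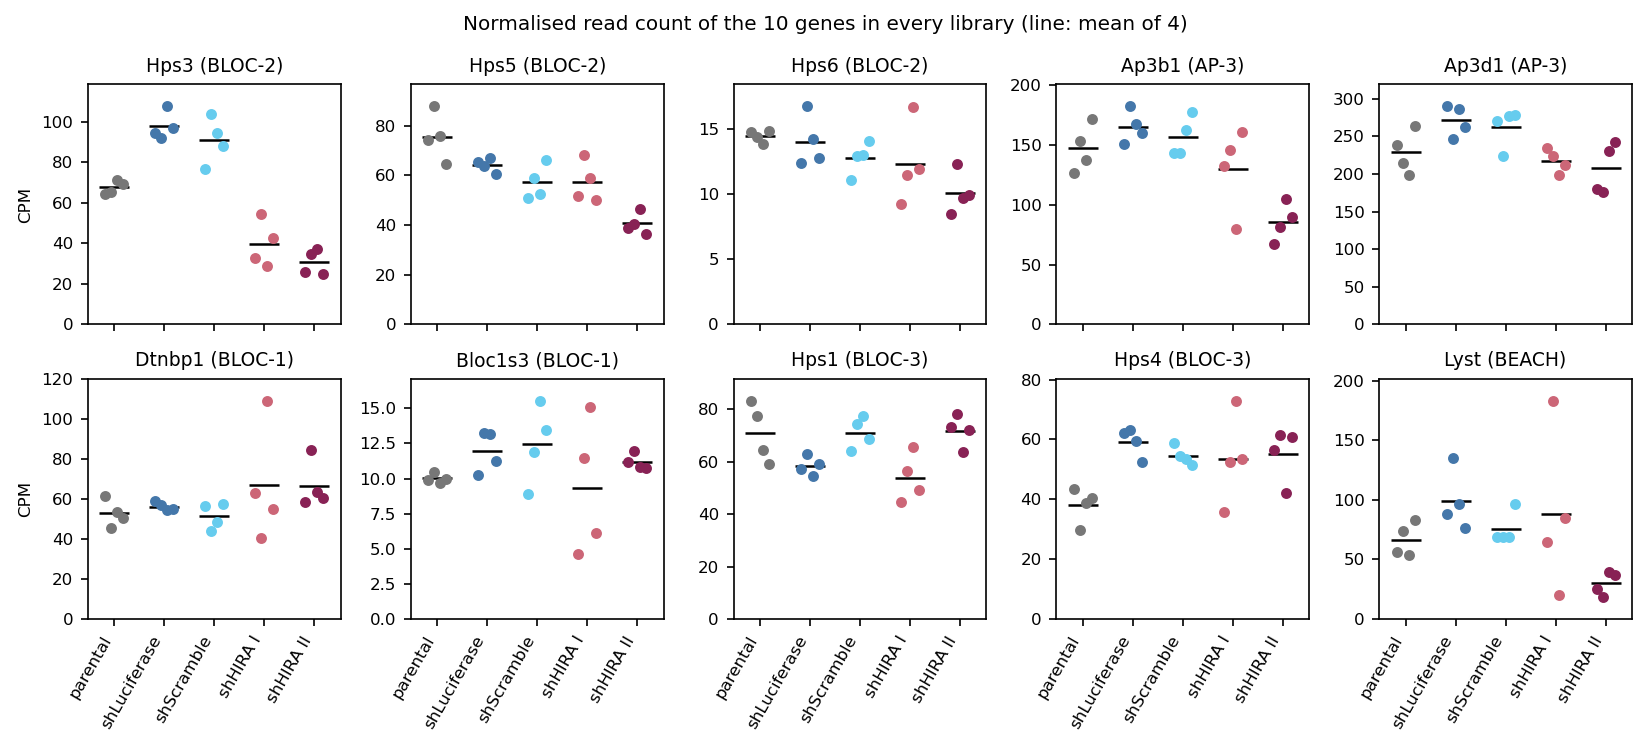
Normalised read count (CPM, linear axes from 0) of each of the 10 genes in every library, by group; points are libraries and lines are means of 4. The 8 Hira hairpin libraries of Hps3 sit between 24.9 and 54.8, all below the control hairpin libraries (76.7 to 107.6), while Hps1 and Hps4 overlap the controls.

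BLOC-2 has the subunits Hps3, Hps5 and Hps6, and of these Hps3 showed the largest difference of all 10 genes. Hps3 is on chromosome 3 of GRCm38, from 19995945 to 20035315 on the minus strand. Its CPM was 94.5, 92.1, 107.6 and 97.0 with shLuciferase and 76.7, 104.0, 94.6 and 87.9 with shScramble. The values were 33.0, 54.8, 28.6 and 42.7 with shHIRA I and 25.7, 34.6, 37.4 and 24.9 with shHIRA II. Every Hira hairpin library lay below every control hairpin library. In CPM, though not in TPM, every one also lay below the parental libraries (64.6, 65.4, 71.4 and 69.5). Hps3 fell to 37.1% of the control hairpin level over both hairpins (log2 fold change -1.43, SE 0.13, adjusted p = 4.55e-07). It fell to 42.2% with shHIRA I (log2 -1.24, SE 0.16, adjusted p = 3.55e-05) and to 32.5% with shHIRA II (log2 -1.62, SE 0.17, adjusted p = 2.55e-06). Each Hira hairpin was also set against each control hairpin, and Hps3 was the only one of the 10 genes called lower in all 4 of those comparisons, beside 2.46% of tested genes called lower and 1.88% called higher in all 4.

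The Hps3 gene overlaps Cp, the gene of the copper-carrying ferroxidase ceruloplasmin, by 13201 bases on the opposite strand. Cp rose while Hps3 fell (log2 1.96, SE 0.34, adjusted p = 0.000278 over both hairpins). The strand setting of the authors' counting is not given in the sources used here, so reads of the overlap cannot be assigned with certainty, and the part of Cp in the Hps3 values was not tested. Of the Hps3 transcripts' 31-base words, 0.851% also occur in Cp transcripts. In shLuciferase replicate 2, a control library, Cp reached 109.8 CPM, inside its range with the Hira hairpins (88.7 to 172.0), and Hps3 was at 92.1. These are values of a single library, and nothing about the part of Cp is read from them.

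Hps5 (chromosome 7, 46760466 to 46796064, minus strand) fell with shHIRA II and not measurably with shHIRA I. Its CPM was 65.3, 63.7, 67.1 and 60.6 with shLuciferase and 51.0, 58.8, 52.5 and 66.2 with shScramble. With shHIRA I the 4 values were 51.6, 68.1, 59.0 and 50.3, inside or next to the control range, and with shHIRA II they were 39.0, 40.6, 46.5 and 36.6, all below it. Hps5 was at 94.6% of control with shHIRA I (adjusted p = 0.679) and fell to 67.2% with shHIRA II (log2 -0.57, SE 0.12, adjusted p = 0.00117). Over both hairpins it fell to 79.7% (log2 -0.33, SE 0.094, adjusted p = 0.0135), a call that was lost with limma on TPM (adjusted p = 0.122) and with a covariate for the mitochondrial share (adjusted p = 0.123). The start of Gtf2h1, a subunit of the transcription factor TFIIH, lies 39 bases from that of Hps5 on the other strand. Gtf2h1 fell with shHIRA I (log2 -0.48, SE 0.14, adjusted p = 0.0241), and with shHIRA II, where Hps5 fell, it was at -0.06 (adjusted p = 0.793).

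Hps6 (chromosome 19, 46003508 to 46006173, plus strand) was the lowest of the BLOC-2 subunits. Its CPM was between 11.1 and 16.8 in the control hairpin libraries, between 9.31 and 16.7 with shHIRA I, and 8.49, 12.4, 9.73 and 9.95 with shHIRA II. The log2 fold change was -0.26 over both hairpins (SE 0.13, adjusted p = 0.126) and -0.40 with shHIRA II (SE 0.16, adjusted p = 0.0547). Without shHIRA I replicate 3 the fit called Hps6 lower over both hairpins (log2 -0.37, adjusted p = 0.0184). With shHIRA II it was called lower by DESeq2 (adjusted p = 0.0444), with only the compared groups in the fit (0.0373), with a covariate for the mitochondrial share (0.0359) and without both libraries of low mitochondrial share (0.00824). The same call was made without parental replicate 1 (0.0490), shLuciferase replicate 1 (0.0453), shScramble replicate 1 (0.0429), shHIRA I replicate 1 (0.0436) or 3 (0.0158), or shHIRA II replicate 2 (0.0313). All 3 BLOC-2 subunits had negative values with each hairpin, but with shHIRA I only Hps3 was called lower. Over both hairpins 2 of 3 were called lower, beside 15.1% of all tested genes, and nothing particular to BLOC-2 is read from 3 genes.

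AP-3 is a coat of a β, a δ, a μ and a σ chain that packs cargo such as tyrosinase. Ap3b1, its β chain and the gene mutated in the pearl mouse, lies on chromosome 13 from 94358960 to 94566317 on the plus strand. Its CPM was 150.9, 182.1, 167.3 and 159.4 with shLuciferase and 143.5, 142.7, 162.7 and 177.0 with shScramble. The values were 132.0, 146.0, 79.9 and 161.0 with shHIRA I and 67.2, 81.5, 104.9 and 89.8 with shHIRA II. Every shHIRA II library lay below the controls, and with shHIRA I the low value was that of replicate 3. Ap3b1 fell to 53.5% of control with shHIRA II (log2 -0.90, SE 0.16, adjusted p = 0.000404) and was at 80.8% with shHIRA I (adjusted p = 0.189). Over both hairpins it fell to 65.7% (log2 -0.61, SE 0.13, adjusted p = 0.00167), and with a covariate for the mitochondrial share that call was lost (log2 -0.42, adjusted p = 0.0601).

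Ap3d1, the δ chain mutated in the mocha mouse, lies on chromosome 10 from 80706956 to 80742264 on the minus strand. Its CPM was 289.9, 246.4, 285.7 and 262.2 with shLuciferase and 271.1, 223.9, 276.7 and 278.9 with shScramble. With shHIRA I it was 234.3, 224.2, 198.5 and 211.5, and with shHIRA II 179.4, 175.8, 231.2 and 242.9, so that both groups lay low but overlapped the controls. Ap3d1 fell to 79.5% over both hairpins (log2 -0.33, SE 0.094, adjusted p = 0.0126), with similar values for shHIRA I (81.4%, adjusted p = 0.0797) and shHIRA II (77.7%, adjusted p = 0.0221). The call over both hairpins was lost with limma on TPM (adjusted p = 0.181). The call with shHIRA II was lost without shHIRA II replicate 1 (log2 -0.28, adjusted p = 0.119) or replicate 2 (log2 -0.30, adjusted p = 0.0925), and with limma on TPM (log2 -0.29, adjusted p = 0.182). It was also lost, at log2 values close to the -0.36 of the fit, with no filter on low counts (-0.36, adjusted p = 0.0538), with a covariate for the mitochondrial share (-0.39, adjusted p = 0.0659) and without both libraries of low mitochondrial share (-0.29, adjusted p = 0.0608). DESeq2 in turn called Ap3d1 lower with shHIRA I (log2 -0.30, adjusted p = 0.0459).

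Of the 7 AP-3 genes tested, 2 were called lower and 1 higher over both hairpins, with a median of -0.14. The gene that rose was Ap3s2, a σ chain, at 143% of control (log2 0.52, SE 0.11, adjusted p = 0.00156), and it was called higher with each hairpin, at log2 values of 0.52 and 0.51. Its paralog Ap3s1 (log2 0.41, adjusted p = 0.154) and the μ chain Ap3m1 (log2 -0.14, adjusted p = 0.609) did not pass the test. Over all tested genes the shares called lower and higher were 15.1% and 14.2%, and nothing particular to AP-3 is read from 7 genes.

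**Figure D2:**
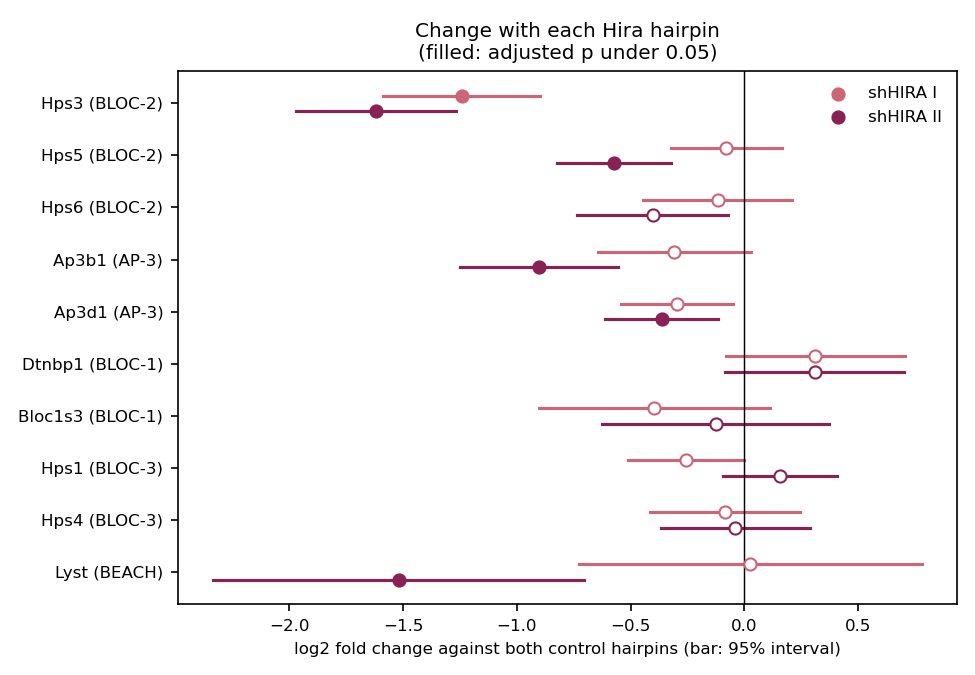
Log2 fold change of each gene with shHIRA I and with shHIRA II against both control hairpins; bars are 95% intervals of the fit and filled points have an adjusted p under 0.05. Hps3 is filled for both hairpins (-1.24 and -1.62), and Hps5, Ap3b1, Ap3d1 and Lyst for shHIRA II alone.

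BLOC-1 is an assembly of 8 small subunits, and it includes Dtnbp1 (dysbindin, mutated in the sandy mouse) and Bloc1s3 (mutated in the reduced pigmentation mouse). Dtnbp1 (chromosome 13, 44922075 to 45002147, minus strand) had a CPM between 44.2 and 58.9 in the control hairpin libraries. With shHIRA I it was 63.1, 40.8, 109.3 and 55.0, and with shHIRA II 58.7, 84.5, 63.4 and 60.8, so 2 and 3 of 4 libraries lay above the control range. The log2 fold change over both hairpins was 0.31 (SE 0.15, adjusted p = 0.135). Without shHIRA I replicate 2 the fit called Dtnbp1 higher (log2 0.40, adjusted p = 0.0303), as did limma on log2(TPM + 1) (log2 0.34, adjusted p = 0.0277). With shHIRA I it was at 0.31 (adjusted p = 0.259), and at 0.49 with a call without replicate 2 (adjusted p = 0.0497).

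Bloc1s3 (chromosome 7, 19504486 to 19508367, minus strand) was the least abundant of the 10 genes. Its CPM was between 8.87 and 15.5 in the control hairpin libraries, 4.61, 11.5, 15.1 and 6.15 with shHIRA I, and 11.2, 11.97, 10.8 and 10.7 with shHIRA II. The log2 fold change was -0.26 over both hairpins (SE 0.19, adjusted p = 0.326). With shHIRA I it was -0.40 (adjusted p = 0.268), and leaving out shHIRA I replicate 3 moved it to -0.73 with a call (adjusted p = 0.0263).

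The 8 BLOC-1 genes together had a median of 0.31 over both hairpins, with 1 called lower and 1 called higher, shares no larger than those over all tested genes (15.1% and 14.2%). Snapin, a subunit that also binds the SNARE protein SNAP-25, fell to 59.6% (log2 -0.75, SE 0.21, adjusted p = 0.0125), and Bloc1s5, the subunit muted, rose to 137% (log2 0.46, SE 0.13, adjusted p = 0.0107). Bloc1s2 rose with shHIRA II (log2 0.78, adjusted p = 0.00723) and not measurably with shHIRA I (log2 -0.05, adjusted p = 0.899). The subunits that BORC, a lysosome-positioning complex, does not share with BLOC-1 were tested as 5 genes, with 1 called lower, 2 higher and a median of 0.04.

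BLOC-3 is a pair of proteins, Hps1 and Hps4, that together switch on Rab32 and Rab38. Hps1 (chromosome 19, 42755105 to 42779978, minus strand) had CPM values of 57.3, 62.8, 54.5 and 59.2 with shLuciferase and 64.0, 74.3, 77.4 and 68.6 with shScramble. With shHIRA I they were 44.5, 56.6, 65.7 and 49.1, and with shHIRA II 73.4, 78.3, 63.7 and 72.1, so shHIRA I lay low and shHIRA II high within or near the control range. The log2 fold change was -0.05 over both hairpins (SE 0.097, adjusted p = 0.737), -0.26 with shHIRA I (adjusted p = 0.148) and 0.16 with shHIRA II (adjusted p = 0.328). Without shHIRA I replicate 3, Hps1 was called lower with shHIRA I (log2 -0.37, adjusted p = 0.0332).

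Hps4 (chromosome 5, 112343083 to 112378414, plus strand) had control hairpin values between 51.4 and 63.0 CPM. It was at 35.6, 52.5, 72.9 and 53.4 with shHIRA I and 56.6, 61.5, 42.1 and 60.9 with shHIRA II, on both sides of the controls. The log2 fold change over both hairpins was -0.06 (SE 0.13, adjusted p = 0.749). Neither BLOC-3 gene was called with either hairpin, while the GTPases that they activate were called lower in all 4 pairings of a Hira hairpin with a control hairpin. Rab38 fell to 38.4% (log2 -1.38, SE 0.19, adjusted p = 3.1e-05) and Rab32 to 48.2% (log2 -1.05, SE 0.14, adjusted p = 2.13e-05). The Rab38 value depends on the reference, since it was at 154% with transduction (adjusted p = 0.158). Against parental cells Rab38 was at 59.1% over both hairpins (adjusted p = 0.0164) and 45.7% with shHIRA I (adjusted p = 0.00597). With shHIRA II it was at 76.5% and did not pass (adjusted p = 0.276). Rab32 was at 43.7% over both hairpins on that reference (adjusted p = 5.66e-05).

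Lyst, the BEACH-domain protein lost in the beige mouse, lies on chromosome 13 from 13590397 to 13778803 on the plus strand and was the most variable of the 10 genes. Its CPM was 88.0, 135.4, 96.4 and 76.0 with shLuciferase and 69.1, 68.5, 69.2 and 96.8 with shScramble. With shHIRA I it was 64.3, 183.1, 20.2 and 85.1, a spread that holds both the highest and nearly the lowest value of the study. With shHIRA II it was 25.6, 18.2, 39.7 and 37.3, all below the controls. Lyst fell to 34.9% of control with shHIRA II (log2 -1.52, SE 0.38, adjusted p = 0.00546), and this call was lost with a covariate for the mitochondrial share (log2 -0.51, adjusted p = 0.297). With shHIRA I the log2 fold change was 0.03 (SE 0.36, adjusted p = 0.972), and over both hairpins it was -0.75 (SE 0.29, adjusted p = 0.0613). Leaving out shHIRA I replicate 2, the high library, gave -1.07 with a call (adjusted p = 0.0030), and leaving out replicate 3, the low one, gave -0.60 with a call (adjusted p = 0.0462). DESeq2 on all libraries also called it (adjusted p = 0.0391). Of 7 tested BEACH relatives of Lyst, Wdr81 fell (log2 -0.57, SE 0.12, adjusted p = 0.00135) and Nbeal1 rose (log2 0.77, SE 0.25, adjusted p = 0.0291). These shares are near those over all tested genes, 15.1% lower and 14.2% higher.

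**Figure D3:**
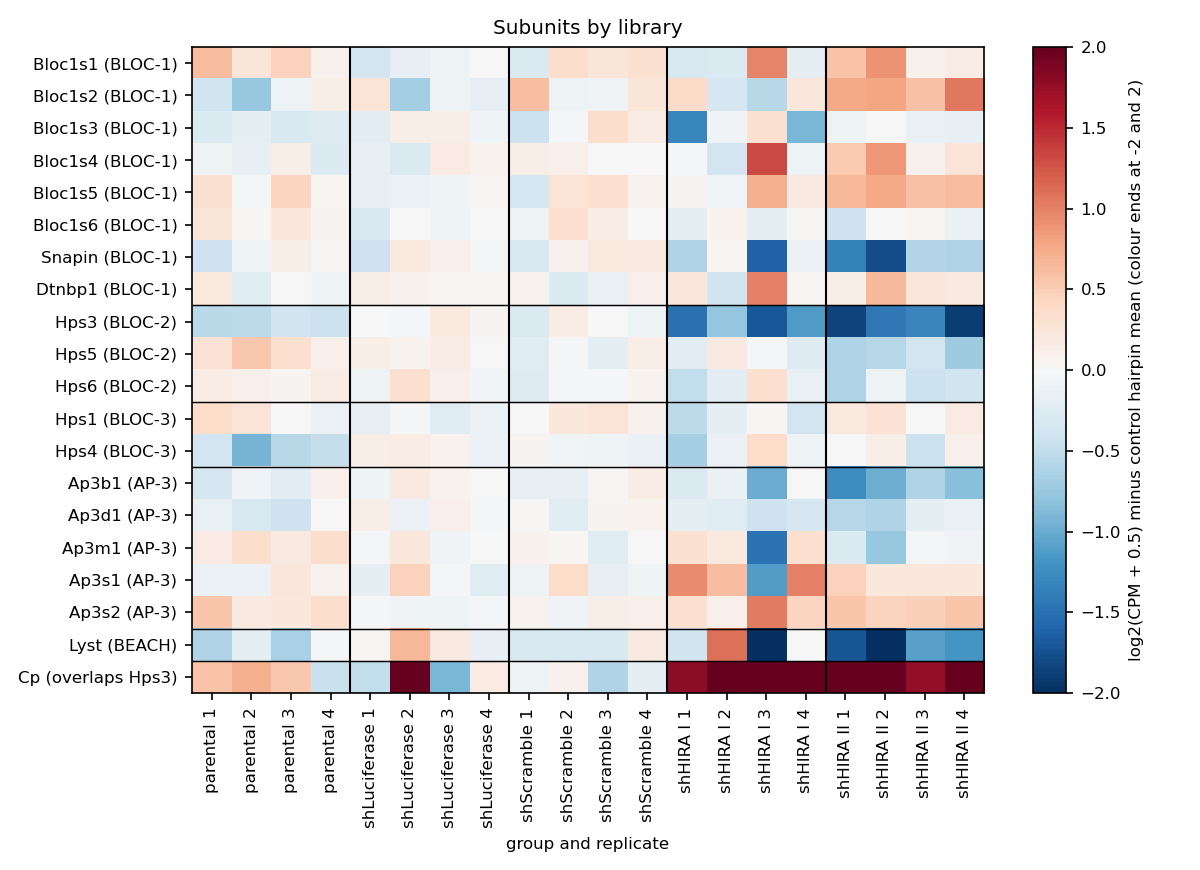
Each row is a subunit, each column a library; colour is log2(CPM + 0.5) minus the mean of the 8 control hairpin libraries, with the colour range ending at -2 and 2. The Hps3 row is lowered in all 8 Hira hairpin libraries, the Ap3b1 row mainly in shHIRA I replicate 3 and shHIRA II, and the Cp row, whose gene overlaps Hps3, is raised in all 8.

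The difference between the hairpins was tested directly. Against shHIRA I, shHIRA II gave 3 of the 10 genes called lower and 1 higher, beside 12.4% and 8.60% of all tested genes. Lyst was lower by a log2 difference of -1.55 (SE 0.42, adjusted p = 0.0134), Ap3b1 by -0.60 (adjusted p = 0.0248) and Hps5 by -0.49 (adjusted p = 0.0124), while Hps1 was higher by 0.41 (adjusted p = 0.0389). Hps3 did not pass (log2 -0.38, SE 0.18, adjusted p = 0.144), and passed without shHIRA I replicate 3 (log2 -0.52, adjusted p = 0.0251). With only the compared groups in the fit, the calls were lost at nearly the same log2 differences: -0.49 for Hps5 (adjusted p = 0.0994), -1.54 for Lyst (0.110), -0.59 for Ap3b1 (0.153) and 0.42 for Hps1 (0.174). Limma on log2(TPM + 1) lost Ap3b1 (-0.57, adjusted p = 0.107) and Lyst (-1.04, adjusted p = 0.0853). With no filter on low counts Ap3b1 (-0.57, adjusted p = 0.0516) and Hps1 (0.44, adjusted p = 0.0602) were lost, and with a mitochondrial covariate Ap3b1 (-0.47, adjusted p = 0.0640) and Lyst (-0.82, adjusted p = 0.0716). Single libraries also decided these calls. Without shHIRA I replicate 2 the adjusted p was 0.0920 for Lyst and 0.0702 for Ap3b1. The Hps5 call was lost without shHIRA II replicate 4 (0.0550). The Ap3b1 call was lost without shHIRA I replicate 4 (0.0959) and without shHIRA II replicate 1 (0.105), replicate 2 (0.0613) or replicate 4 (0.0536). The Hps1 call was lost without any of 8 single libraries, namely parental replicate 3 (0.0565), shScramble replicate 2 (0.0570), shHIRA I replicates 1, 2 and 4 (0.0902, 0.0594 and 0.106) and shHIRA II replicates 1, 2 and 4 (0.0703, 0.0986 and 0.0597).

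Transduction was read from the control hairpins against the parental cells. Hps4 was called higher, at 149% of the parental level (log2 0.58, SE 0.16, adjusted p = 0.0498), and 0 of the 10 genes were called lower, where 1.57% of all tested genes were lower and 2.05% higher (0.628% and 1.71% with limma on TPM). Of the 10, Hps5 was lower at an unadjusted p under 0.05, and DESeq2 and limma on TPM called 0 lower. The Hps4 parental values were 43.6, 29.7, 38.6 and 40.6 CPM, all below the control hairpin range of 51.4 to 63.0, but the call lay at the threshold and was lost when any single parental, shLuciferase or shScramble library was left out, or shHIRA I replicate 4 or shHIRA II replicate 1, 2 or 4 (adjusted p up to 0.189, without parental replicate 2). Hps3 had a log2 value of 0.48 (adjusted p = 0.106), and was called higher by DESeq2 (0.0363), with only the compared groups in the fit (0.0113) and without shHIRA I replicate 2 (0.0497) or 3 (0.0487). With the parental libraries as the reference, 2 of the 10 genes were lower with shHIRA I (Hps3 and Hps5), beside 6.82% of all tested genes. With shHIRA II, 5 were lower (Hps3, Hps5, Hps6, Ap3b1 and Lyst) and Hps4 was higher, beside 14.9% and 14.4%. Hps3 fell less against this reference, to 58.7% with shHIRA I (adjusted p = 0.00606) and 45.3% with shHIRA II (adjusted p = 0.000155), and Ap3d1 was no longer called (90.5% with shHIRA II, adjusted p = 0.443).

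Other parts of the sorting pathway were read over both hairpins, where 15.1% of all tested genes were called lower and 14.2% higher. Of 10 tested partners of the BLOC complexes, 6 were called lower and the other 4 did not pass (median -0.33): Rab38, Rab32, the SNAREs Stx3 (log2 -0.45) and Stx12 (log2 -0.29), the Rab prenylation subunit Rabggta (log2 -0.44), mutated in the gunmetal mouse, and Rab9 (log2 -0.34). The hairpins differed for several of them by edgeR. Against shHIRA I, shHIRA II was lower for Rab9 (log2 -0.59, adjusted p = 0.0157) and Stx12 (-0.34, 0.0472). It was higher for Stx3 (0.55, 0.0334) and Rab38 (0.74, 0.0485), and Rab32 and Rabggta did not pass. With shHIRA I alone Rab9 (log2 -0.04, adjusted p = 0.880) and Stx12 (-0.12, 0.470) were not called. Rab38, Rab32, Stx3 (-0.73, 0.00291) and Rabggta (-0.63, 0.0183) were called lower there. Against parental cells Stx3 and Rabggta were called lower with shHIRA I (69.3%, adjusted p = 0.0468, and 65.3%, 0.0451). With shHIRA II they were not (101%, 0.948, and 85.0%, 0.412), so the 6 calls are those of the pooled hairpins. Of 8 HOPS and CORVET tethering subunits, 3 were called lower and the other 5 did not pass (median -0.27), with Vps18 at -0.51, Tgfbrap1 at -0.34 and Vps39 at -0.26. Of 7 tested AP-1 subunits, 1 was called lower and 1 higher (median -0.12), near the shares over all tested genes. The one that fell was Ap1s2, a σ chain of the adaptor that also feeds the melanosome, to 27.7% (log2 -1.85, SE 0.24, adjusted p = 2.39e-05), a larger fall than that of any of the 10 genes, and Ap1s1, its paralog, rose (log2 0.70, SE 0.25, adjusted p = 0.0451).

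The melanosome cargo moved much further than the machinery. Of 12 cargo genes, 9 were called lower and 1 higher over both hairpins, beside 15.1% and 14.2% of all tested genes. Their median log2 fold change was -2.02, beside -0.29 for the 10 genes and 0.03 for all tested genes. Tyrosinase (Tyr), the first enzyme of melanin synthesis, was at 7.41% of the control hairpins (log2 -3.75), but this value depends on the reference, since Tyr rose to 557% with transduction (log2 2.48, SE 0.46, adjusted p = 0.00545). Against parental cells Tyr was at 41.3% over both hairpins (adjusted p = 0.0263), 20.3% with shHIRA II (adjusted p = 0.00231) and 83.9% with shHIRA I, where it did not pass (adjusted p = 0.775). Dct (log2 -2.61) and Tyrp1 (-2.41), enzymes of the same route, the fibril protein Pmel (-2.53), the transporters Slc24a5 (-2.26) and Slc45a2 (-1.31), the tetraspanin Tspan10 (-2.17), the receptor Gpr143 (-1.87) and Mlana (-0.96) also fell. Mfsd12, a cysteine transporter of the organelle, rose (log2 0.62), and the copper pump Atp7a (log2 -0.47, adjusted p = 0.140) and Oca2 (log2 -0.10, adjusted p = 0.901) did not pass. Hps3, at -1.43, was the only one of the 10 genes whose fold change was as large as that of the less affected cargo genes Slc45a2 and Mlana. With shHIRA I the cargo median was -1.37 beside -0.19 for the 10 genes, and with shHIRA II -2.34 beside -0.38. With shHIRA I alone Tyrp1 (log2 -1.05, adjusted p = 0.0866) and Mlana (-0.59, 0.0556) did not pass by edgeR. Oca2 was at 1.12 there (0.192), and the other cargo genes that fell over both hairpins were called lower. With parental cells as the reference the cargo median over both hairpins was -1.17, beside -0.28 for the 10 genes.

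**Figure D4:**
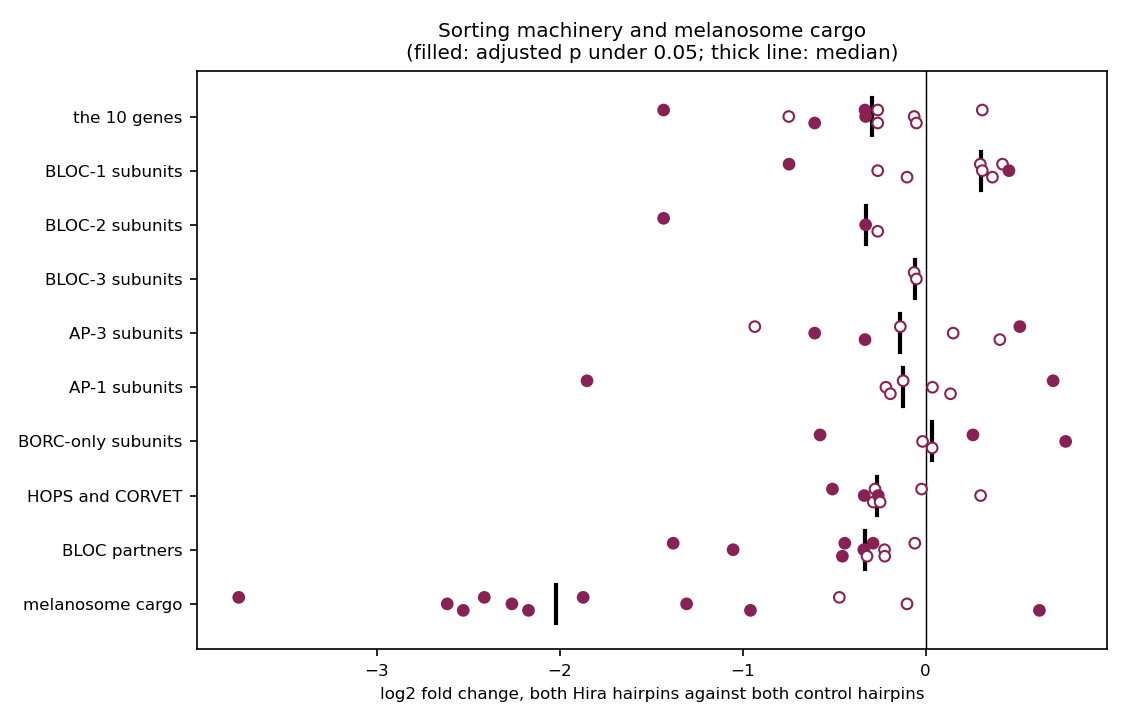
Log2 fold change over both Hira hairpins against both control hairpins, 1 point per gene, by complex or list; filled points have an adjusted p under 0.05 and thick lines are medians. The machinery lists centre between -0.33 and 0.31, and the cargo list at -2.02; the 10 genes and the complex lists share members.

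Across the 20 libraries, the median Pearson r of log2 CPM between a gene and the 12 cargo genes was 0.90 for Hps3 and 0.75 for Ap3b1, between 0.57 and 0.65 for Hps6, Hps5, Lyst and Ap3d1, 0.30 for Bloc1s3, 0.02 for Hps1, -0.004 for Hps4 and -0.43 for Dtnbp1. After each group's mean was removed it was 0.56 for Hps3, 0.50 for Hps6, 0.38 for Bloc1s3, 0.29 for Hps5, 0.20 for Ap3b1, 0.15 for Lyst and -0.007 for Ap3d1. For Hps1, Hps4 and Dtnbp1 it was 0.21, 0.18 and -0.10. Much of the pooled value for Ap3b1, Lyst, Hps5 and Ap3d1 therefore lies between groups. These values describe libraries that share depth, RNA quality and hairpin. The genes most like Hps3 by this measure were Nr4a3, an orphan nuclear receptor (r = 0.97, within groups 0.78), Stpg1 (0.965 and 0.82) and Fam63b (0.96 and 0.84). For Ap3b1 they were Zfyve9, Micall1 and Sdk1 (r of 0.96 each), and for Ap3d1 Tmem104 (0.92), E430025E21Rik (0.89) and Itpr3 (0.89).

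In TPM, which is scaled by transcript length, the 10 genes fell into a high and a low tier in the 8 control hairpin libraries. Ap3d1 was highest at 61.6 ± 6.92 (SD, n = 8), followed by Dtnbp1 at 49.5 ± 6.50, Ap3b1 at 44.7 ± 5.09, Hps3 at 32.8 ± 3.34, Hps1 at 29.4 ± 2.66, Hps4 at 29.3 ± 3.41 and Hps5 at 25.0 ± 3.11. Lyst at 7.19 ± 2.08, Hps6 at 5.78 ± 0.840 and Bloc1s3 at 4.33 ± 0.717 formed the low tier. Dtnbp1 and Ap3b1, Hps1 and Hps4, and Lyst and Hps6 differed by less than the larger SD of the pair. The other neighbours in this order had overlapping ranges except at the step between the tiers, where the lowest Hps5 library (20.9) lay above the highest Lyst library (11.5). Among the BLOC-2 subunits, Hps3 ranged from 27.3 to 38.6 TPM in the control hairpin libraries and from 8.53 to 22.7 with the Hira hairpins. In the parental libraries it ranged from 19.9 to 24.4 TPM. That range overlapped the one with shHIRA I (8.53 to 22.7) and lay above the one with shHIRA II (9.50 to 14.9).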

How the data were processed

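Poly(A) RNA of 20 melb-a libraries, 4 in each of 5 groups, was sequenced as directional libraries, per the labels' protocols. The authors deposited estimated counts per gene and TPM (length-scaled transcript abundance). The submitters' processing notes name bcl2fastq, kallisto, edgeR and mm10 without versions, and the strand setting of the counting is not given in the sources used here. Estimated counts were rounded and fitted with edgeR 4.0.16 in R 4.3.3: TMM scaling, filterByExpr by group, 1 mean per group over all 20 libraries, and a quasi-likelihood F test per contrast with Benjamini-Hochberg adjustment over 13541 genes. A call is an adjusted p under 0.05. Intervals of fold changes use 16 residual degrees of freedom. Alternatives were RLE size factors, DESeq2 1.42.0, limma 3.58.1 on log2(TPM + 1) and log2(TPM + 0.5), no filter, a fit of the compared groups only, a replicate block, a covariate for the mitochondrial share, parental cells as the reference, and leaving libraries out. The main edgeR fit was tested on simulated counts for the comparison over both Hira hairpins only, with the same changes put into both Hira hairpin groups. The alternatives and the other comparisons were not tested so. All 10 genes are named in every comparison; of the other lists, genes called over both hairpins are named, at most 6 a list by fold change (all called cargo genes), and a few others were chosen after their values were seen. The genes most like a called gene were ranked by Pearson r over all tested genes. The 10 genes and all lists were chosen with earlier results of these data known. The labels call the libraries of a group biological replicates without saying what was grown separately, so p-values measure the spread between libraries, which may be technical. Of the rows, 6990 were at 0 in every library. Gene positions are from GENCODE M21 (GRCm38). Shared 31-base words were counted between the transcripts of each of the 10 genes and those of all other genes: 3.77% of words for Hps1, 2.65% for Hps3, 2.57% for Hps4, 1.51% for Hps5, 0.554% for Ap3d1 and 5.54% for Bloc1s3.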

Additional observations from a re-analysis of the deposited data

Results flagged for a closer look

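Within groups of 4 libraries, a gap test on single values marked 2 of 50 group values, and chance marks about 1 in 20. Ap3d1 in shScramble replicate 2 was low at 223.9 CPM, where the other 3 libraries of the group lay between 271.1 and 278.9. Lyst in shScramble replicate 4 was high at 96.8 CPM, where the others lay between 68.5 and 69.2. The difference between the Hira hairpins was significant by edgeR's test of the difference itself for 4 genes: Hps1 was higher with shHIRA II than with shHIRA I by 0.41 (log2), and Hps5, Ap3b1 and Lyst had differences of -0.49, -0.60 and -1.55. Hira was at 87.8% of control in the libraries labelled shHIRA II and at 48.3% with shHIRA I, and the part of this in the differences was not tested.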

How the results depend on the processing

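Over 30 alternatives, 1670 of 1770 values of the 10 genes kept their side of the threshold (50 of all values changed sign without a call before or after), 61 lost a call, 37 gained one and 2 reversed. The reversals were those of Hps4 against parental cells, at 0.51 over both hairpins and 0.54 with shHIRA II (adjusted p = 0.0234 and 0.0302). Hps3 was called lower over both hairpins and with each hairpin in all 29 alternatives that keep the control hairpins as reference, at -1.53 to -1.23 over both, and against parental cells too. It was also the 1 gene called lower, with 0 higher, in every alternative for the 4 pairings of a Hira with a control hairpin.

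The larger relative moves in the counts of called genes were as follows. Smaller ones are left out, apart from those with shHIRA II and the ranges for single libraries. Over both hairpins, the 4 lower became 2 with limma on TPM (either pseudocount) and 2 with the mitochondrial covariate, and the 0 higher became 1 with limma on TPM (either pseudocount) and 1 against parental cells; leaving out 1 library gave 4 to 6 lower and 0 to 1 higher. With shHIRA I, the 1 lower became 2 with DESeq2, 2 against parental cells and 3 without both libraries of low mitochondrial share, and leaving out 1 library gave 1 to 3 lower and 0 to 1 higher. With shHIRA II, the 5 lower became 6 with DESeq2 and 4 with limma on log2(TPM + 1). Hps6 gained a call with only the compared groups and with the replicate block, and Ap3d1 lost its call with no filter. The mitochondrial covariate added Hps6 and removed Ap3d1 and Lyst. The 0 higher became 1 with limma on TPM (either pseudocount) and 1 against parental cells, and leaving out 1 library gave 4 to 6 lower. Between the hairpins, the 3 lower became 1 with limma on TPM (either pseudocount), 0 with only the compared groups and 1 with the mitochondrial covariate, and the 1 higher became 0 with no filter and 0 with only the compared groups; leaving out 1 library gave 1 to 4 lower and 0 to 1 higher. For transduction, the 1 higher became 2 with DESeq2, with only the compared groups and without both libraries of low mitochondrial share, and 0 with no filter; leaving out 1 library gave 0 to 2. Beyond the settings that remove or add genes or samples, the cause was not tested.

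With the replicate number as a block, the count for transduction fell from 1 to 0 higher, Lyst over both hairpins (-0.79, adjusted p = 0.0491) and Hps6 with shHIRA II (-0.41, adjusted p = 0.0374) gained a call, and the block changed no other call among the 10 genes beside that of Hps4. Libraries of the same number in different groups were weakly alike. Of such pairs, 17 of 40 had correlated deviations above 0.1 (mean r 0.067), against 16 of 120 with different numbers (mean r -0.022). By the mean over the other groups, 13 of 20 libraries correlated best with their own number. The main fit used no block, so a partial pairing by number is not taken into account there.

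Over all genes, the shares called lower and higher between the hairpins were 5.45% and 2.98% with only the compared groups and 17.9% and 14.2% without shHIRA I replicate 3. With shHIRA I, 5.98% were called lower with only the compared groups, and with shHIRA II 11.3% were lower and 9.13% higher with the mitochondrial covariate. For transduction the shares lower and higher were 0.598% and 0.906% with no filter, 3.40% and 3.49% with only the compared groups, 2.67% and 3.23% with the mitochondrial covariate, 2.94% and 3.20% without both libraries of low mitochondrial share, 2.56% and 3.18% without shHIRA I replicate 3, and as low as 0.621% and 0.903% without single parental libraries. Bloc1s3 and Hps6, the least abundant of the 10 genes, had SEs of 0.19 and 0.13 over both hairpins.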
